A study of Mus musculus with 54 samples.

Results

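The replication-dependent histone genes were taken as all protein-coding genes of the GENCODE vM21 annotation (mouse build mm10) whose symbol starts with Hist1, Hist2, Hist3 or Hist4, which gave 67 of 21951 genes. They encode 18 H2A, 18 H2B, 13 H4, 12 H3 and 6 linker (H1) histones and fall into 7 clusters. Of these genes, 54 lie on chromosome 13 (Hist1), 10 on chromosome 3 (Hist2), 2 on chromosome 11 (Hist3) and 1 on chromosome 6 (Hist4h4). The occupancy of CTCF and of the cohesin subunits Rad21 and Smc3 at these genes was read from 44 lists of chromatin immunoprecipitation sequencing (ChIP-seq) peaks, 1 per library.

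All cells derive from the mouse embryonic stem cell (ESC) line E14. The rescue lines carry a degron tag (mAID-eGFP) on CTCF at both endogenous alleles, the adaptor OsTIR1 is expressed from Rosa26, and a doxycycline-inducible Flag-Halo-CTCF, either wild type (WT) or without zinc finger 1 (ΔZF1), sits at the Tigre locus. The WT and the ΔZF1 rescue are 1 clone each. The WT and ΔZF1 cells both received 1 µM 5-Ph-IAA, which degrades the tagged endogenous protein, and 1 µg/ml doxycycline for 24 hours, either as ESCs or after 2 days of differentiation into neural progenitor cells (NPCs). CTCF was mapped in 4 libraries, and Rad21 and Smc3 in 2 libraries each, of the 4 resulting groups, which are called ESC-WT, NPC-WT, ESC-ΔZF1 and NPC-ΔZF1. CTCF and Smc3 were also mapped in 2 NPC libraries each of parental E14 cells and of the PodxlpA and Grb10pA lines, in which both alleles of Podxl or Grb10 carry an eGFP cassette ending in a polyadenylation signal that shortens the RNA. Peak lists hold no expression values, so neither the NPC identity nor the ΔZF1 protein could be checked in them.

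Replication-dependent histone genes supply the histones that package newly made DNA, and they are transcribed in S phase from short genes without introns. Their mRNAs end in a stem-loop and not in a poly(A) tail, and the genes are gathered in clusters that nucleate a nuclear body, the histone locus body. Most H2A and H2B genes lie in divergent pairs that share a promoter. CTCF binds DNA through zinc fingers that read a conserved motif, whereas the cohesin ring, to which Rad21 and Smc3 belong, has no such motif of its own and is usually found where CTCF halts it.

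The sequences below show what lay under the peaks at the genes on which the results turn. The first group holds 75 bases to each side of the median CTCF summit, cut where the window would enter or leave a gene, on the plus strand of mm10, with every match to the 13-letter core of the CTCF motif (at most 1 mismatch, both strands) in capitals. Hist1h4j, Hist1h2bl and Hist1h4c are shown because all or most of their CTCF summits sat beside such a core, and Hist3h2a because it was called in more CTCF libraries than any other histone gene and had none.
Hist1h4j CTCF summit (chr13:21734221-21734371): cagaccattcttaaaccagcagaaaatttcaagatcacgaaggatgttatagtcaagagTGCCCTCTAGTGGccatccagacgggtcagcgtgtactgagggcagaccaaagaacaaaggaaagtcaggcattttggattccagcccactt
Hist1h2bl CTCF summit (chr13:21714859-21715009): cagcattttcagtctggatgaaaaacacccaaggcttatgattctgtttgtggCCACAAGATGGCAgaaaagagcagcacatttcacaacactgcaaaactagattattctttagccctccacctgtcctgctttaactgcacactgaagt
Hist1h4c CTCF summit (chr13:23697513-23697634): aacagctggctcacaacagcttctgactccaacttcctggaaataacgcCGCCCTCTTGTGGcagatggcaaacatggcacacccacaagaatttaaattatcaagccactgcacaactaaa
Hist3h2a CTCF summit (chr11:58955036-58955127): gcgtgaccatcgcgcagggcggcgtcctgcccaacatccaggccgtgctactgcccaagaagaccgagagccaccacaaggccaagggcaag
The core of Hist1h4j had 0 mismatches, those of Hist1h2bl and Hist1h4c had 1. The middle of the match lay 10, 16 and 20 bases before the median summit. The Hist3h2a window lies within its coding sequence.

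The next group shows, in the same way, the sequence under the Rad21 summits of 3 genes that carried Rad21 in all 8 libraries, the linker histone genes Hist1h1c and Hist1h1a and the H4 gene Hist1h4d. They hold no match to the CTCF core and therefore no capitals, and all lie within coding sequence.
Hist1h1c Rad21 summit (chr13:23738860-23739010): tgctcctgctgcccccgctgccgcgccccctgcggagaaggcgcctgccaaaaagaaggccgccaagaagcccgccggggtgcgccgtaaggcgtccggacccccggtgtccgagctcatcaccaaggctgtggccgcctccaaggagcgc
Hist1h1a Rad21 summit (chr13:23763767-23763917): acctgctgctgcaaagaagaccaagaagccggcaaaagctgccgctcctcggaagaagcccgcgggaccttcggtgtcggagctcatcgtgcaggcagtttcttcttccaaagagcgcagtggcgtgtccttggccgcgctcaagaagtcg
Hist1h4d Rad21 summit (chr13:23581634-23581784): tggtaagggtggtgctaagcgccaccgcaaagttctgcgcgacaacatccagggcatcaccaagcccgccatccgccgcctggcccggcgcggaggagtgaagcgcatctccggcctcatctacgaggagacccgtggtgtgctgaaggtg
The stretches upstream of the start site of Hist1h1c and of the H2B gene Hist2h2bb, from RefSeq (GRCm38), show the elements of histone promoters next to which these peaks lay. Capitals mark the CCAAT box, the TATA box searched as TATAAA, the octamer ATTTGCAT and the H1 element AAACACA, on either strand.
Hist1h1c promoter (chr13:23738557-23738806): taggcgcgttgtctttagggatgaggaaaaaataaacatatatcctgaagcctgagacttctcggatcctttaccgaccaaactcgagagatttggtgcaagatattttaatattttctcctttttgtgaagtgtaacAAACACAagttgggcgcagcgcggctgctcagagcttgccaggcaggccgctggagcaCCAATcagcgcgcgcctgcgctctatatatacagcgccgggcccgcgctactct
Hist2h2bb promoter (chr3:96269450-96269699): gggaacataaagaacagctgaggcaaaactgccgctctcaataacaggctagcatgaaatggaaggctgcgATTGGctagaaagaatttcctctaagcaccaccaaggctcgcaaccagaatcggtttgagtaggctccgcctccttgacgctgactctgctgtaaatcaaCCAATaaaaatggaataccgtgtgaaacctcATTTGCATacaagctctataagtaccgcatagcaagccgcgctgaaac

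Over the 300-base promoter windows of RefSeq, of which 62 of the 67 genes had 1 that could be matched, CCAAT occurred in 85.5% of the histone promoters and in 37.4% of all 32851 promoters. It was present in all 6 H1, 18 H2A, 16 H2B and 10 H3 promoters and in 3 of 12 H4 promoters. TATAAA occurred in 56.5% against 13.6% of all promoters, and the octamer in 22.6% against 1.74%, in 7 H2A and 7 H2B promoters and in no other type. AAACACA occurred in 14.5% against 7.18%, in 5 of the 6 H1 promoters, 2 H2A and 2 H2B promoters. These matches are letters in a window and were not tied to a factor.

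A histone gene was counted as bound when a peak summit lay within 2 kb of it. In all, 889 peaks met this condition, 259 of CTCF, 145 of Rad21 and 485 of Smc3, and they merged into 77 sites. The lists were of very different length, from 5755 to 45941 peaks for CTCF in the rescue lines, 1306 to 10415 for Rad21, 8169 to 34104 for Smc3 in the rescue lines, and 10005 to 28805 in the E14 and pA lines. Background coverage, the lowest local background in a list and a measure of depth, was 1.14 to 2.39 fragments for CTCF replicates 1 and 4 of the rescue lines, 0.392 to 0.905 in replicates 2 and 3, 2.06 to 3.72 for Rad21 and 2.05 to 3.51 for Smc3 in the rescue lines. Replicates 1 and 4 and replicates 2 and 3 were therefore also examined apart.

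In the full lists, cohesin peaks were more frequent at histone genes than at all genes in each of the 22 cohesin libraries. Rad21 lay within 2 kb of the start site of 19.4% to 56.7% of the histone genes (median 29.9%, 8 libraries), against 1.00% to 4.85% of all protein-coding genes. Smc3 lay there at 23.9% to 89.6% of the histone genes (median 61.2%, 14 libraries), against 4.04% to 36.9%. The ratio of the histone share to the share of all genes was 8.72 to 21.2 for Rad21 and 2.27 to 7.76 for Smc3. For CTCF the histone share was 1.49% to 74.6% against 4.82% to 46.8%, and the ratio ran from 0.287 to 2.48 (22 libraries), so that CTCF was below the level of all genes in some libraries and above it in others. The genes of a cluster lie close together, and 1 peak can count for several of them.

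**Figure D1:**
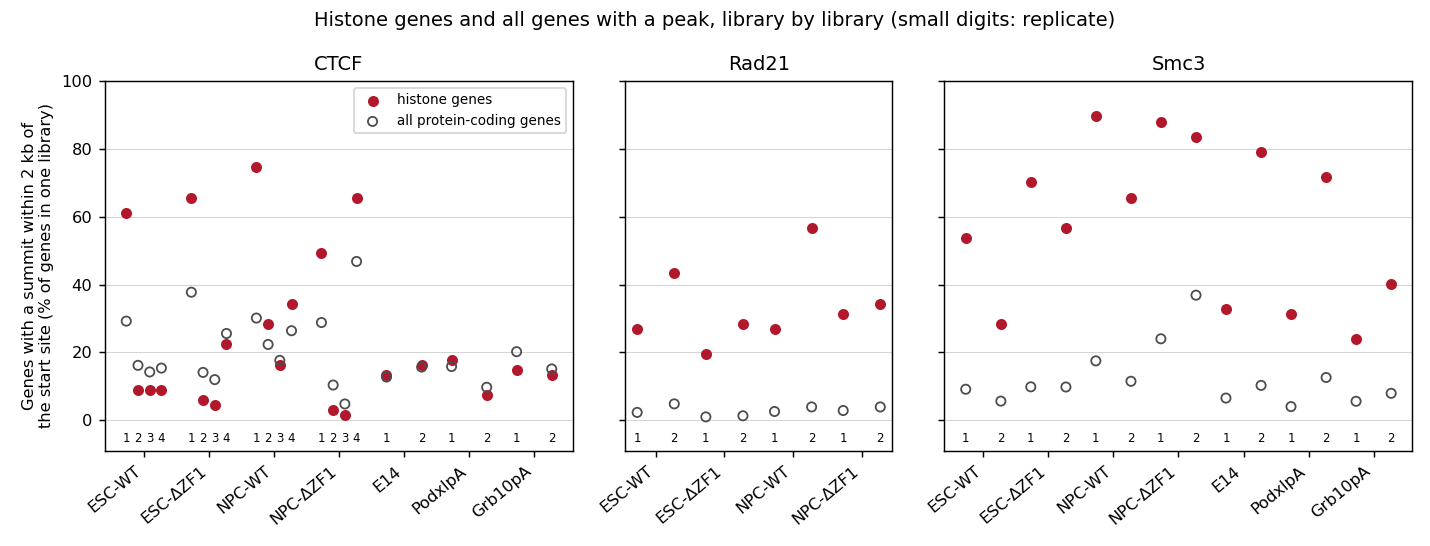
Share of the histone genes (filled red points) and of all protein-coding genes (open points) with a peak summit within 2 kb of the start site, in percent on the y axis, for each library along the x axis, with 1 panel per antibody and the replicate number under each point. The Rad21 and Smc3 points of the histone genes lie above those of all genes in each library, between 19.4% and 89.6%, while the CTCF points lie on both sides.

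Rad21 occupied the start site in all 8 libraries at 7 of the 67 histone genes, against 0.419% of all genes. Smc3 did so in all 14 libraries at 2 of 67, against 1.8% of all genes, and CTCF in all 22 at 0 of 67, against 2.71%. Within 2 kb of any part of the gene, Rad21 was called in all libraries at 8 histone genes (1.62% of all genes), Smc3 at 4 (8.34%) and CTCF at 0 (8.3%). At least 1 library showed Rad21 at 46 of the 67 genes (26.5% of all genes), Smc3 at 63 (61.7%) and CTCF at 59 (71.1%). The histone genes are short, with a median length of 539 bp against 17403 bp for all genes, and the part of gene length in these shares was not tested. All 46 genes with Rad21 also had CTCF in at least 1 of the 22 libraries, as did 59 of the 67 genes. This counts genes over any library and not shared peaks, and the same share among all genes with Rad21 was not counted.

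Most of these peaks were weak for their list. The median histone peak of a library stood at the 14.8th to 57.4th percentile of fold enrichment in the Rad21 lists, at the 13.3rd to 47.3rd in the rescue Smc3 lists and at the 4.35th to 57.0th in the rescue CTCF lists. When each list was cut to its 1306 strongest peaks, the length of the shortest list, CTCF was left at 0 histone genes in all 16 rescue libraries, Smc3 at 0 to 3 (median 0.5, 8 libraries) and Rad21 at 0 to 13 (median 1, 8 libraries). The share of all genes with a start-site peak at this length was 1.49% to 3.32% for CTCF, 0.856% to 1.23% for Smc3 and 0.610% to 1.00% for Rad21. In 4 of the 8 Smc3 libraries and in 1 of the 8 Rad21 libraries (ESC-WT replicate 2) no histone start site was left, so that the higher frequency at histone genes was lost there. In the other 11 the histone share was 1.49% to 19.4%, above that of all genes. The highest values, 13 and 10 genes, came from Rad21 ESC-ΔZF1 replicates 1 and 2. Their full lists held 1306 and 2347 peaks, so that replicate 1 was not cut at all. All other Rad21 and Smc3 libraries kept 0 to 3 histone genes. A single histone gene already makes 1.49%, more than any share of all genes given here for Smc3 or Rad21. At this length the comparison therefore cannot tell 1 gene from a wider excess. Only 1 gene was left in Rad21 ESC-WT replicate 1, NPC-WT replicates 1 and 2 and NPC-ΔZF1 replicate 1, and in Smc3 ESC-ΔZF1 replicate 2.

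The number of histone genes bound by Rad21 was 18 and 29 in ESC-WT, 13 and 19 in ESC-ΔZF1, 20 and 38 in NPC-WT and 21 and 23 in NPC-ΔZF1. For Smc3 it was 37 and 21 in ESC-WT, 50 and 41 in ESC-ΔZF1, 61 and 46 in NPC-WT and 60 and 58 in NPC-ΔZF1. Smc3 lists thus named more of the 67 genes than Rad21 lists without overlap in 3 of the 4 groups, and the 2 overlapped in ESC-WT. The mean difference was 36.0 percentage points of the 67 genes (69.8% ± 20.4 for Smc3 and 33.8% ± 11.5 for Rad21, SD, n = 8 each; exact permutation within the 4 groups, two-sided p = 0.00463, adjusted over 10 tests 0.0231). With each list cut to 1306 peaks it was −3.92 points, the opposite sign (exact permutation p = 0.236). The Rad21 ESC-ΔZF1 lists, of 1306 and 2347 peaks in full, were the least cut. Without replicate 1 the difference was 21.3 points, and without replicate 2 it was 50.7 points. Either choice leaves 1 library per antibody and group, where the permutation test cannot reach the threshold, so the test decides nothing there. CTCF named fewer histone genes than Smc3 by 40.3 points (29.5% ± 26.4, n = 16, against 69.8% ± 20.4, n = 8; exact permutation within groups, two-sided p = 0.00201, adjusted 0.0201), and the difference was −7.93 points with each list cut to 5755 peaks, the shortest of these lists (exact p = 0.000237).

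CTCF occupancy divided by replicate. In replicates 1, 2, 3 and 4, CTCF bound 43, 6, 7 and 6 of the 67 genes in ESC-WT and 44, 4, 3 and 17 in ESC-ΔZF1. In NPC-WT it bound 50, 20, 11 and 24 genes, and in NPC-ΔZF1 33, 2, 1 and 45. Replicate 1 was the highest in 3 of the 4 groups, and replicates 2 and 3 held the lowest values in ESC-ΔZF1, NPC-WT and NPC-ΔZF1. In the E14, PodxlpA and Grb10pA NPCs, CTCF bound 10 and 12, 12 and 5, and 10 and 10 genes.

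The ΔZF1 and WT rescues did not separate in CTCF occupancy of histone genes. In ESCs CTCF bound 25.4% ± 28.5 of the genes in ΔZF1 and 23.1% ± 27.4 in WT (SD, n = 4 each), a difference of 2.24 points (exact permutation, two-sided p = 0.971). Within replicates 1 and 4 the difference was 8.96 points, and within replicates 2 and 3 it was −4.48. In NPCs it was 30.2% ± 33.1 in ΔZF1 and 39.2% ± 25.0 in WT (n = 4 each), a difference of −8.96 points (exact permutation p = 0.686), with 2.99 within replicates 1 and 4 and −20.9 within replicates 2 and 3. The spread between replicates exceeded both differences.

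NPCs held more CTCF peaks at histone genes than ESCs in the WT rescue, by 16 points, in the pooled data and within each pair of replicates (18.7 in replicates 1 and 4, 13.4 in replicates 2 and 3), but the exact permutation p was 0.457 (two-sided, n = 4 each). With these lists cut to 11189 peaks each, the difference was 2.24 points (exact p = 0.629). In ΔZF1 the difference was 4.85 points (exact permutation p = 0.971, n = 4 each), with 12.7 and −2.99 within the pairs. Counted per 1000 peaks of a list, histone peaks numbered 0.746 ± 0.397 in NPC-WT and 0.335 ± 0.197 in ESC-WT (SD, n = 4 each; difference 0.412, exact permutation p = 0.171), and 0.731 ± 0.667 in NPC-ΔZF1 and 0.404 ± 0.331 in ESC-ΔZF1 (difference 0.328, exact p = 0.4). At equal list lengths the WT difference per 1000 peaks was 0.134, and without NPC-ΔZF1 replicate 1 the ΔZF1 difference was 0.0581. Between genotypes the differences per 1000 peaks were 0.0690 in ESCs (exact p = 0.857) and −0.0151 in NPCs (exact p = 1). All 8 of these CTCF tests had an adjusted p of 0.571 or more, where the smallest p that 4 against 4 libraries allow is 0.0286.

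No histone gene switched, that is, had CTCF in all 4 libraries of a group and in none of the other. Over all genes the switched share was 0.0319% for ΔZF1 against WT in ESCs, 0.128% in NPCs, 0.082% for NPCs against ESCs in WT and 0.0774% in ΔZF1. A limma test of ranked fold enrichment needed sites called in all 8 libraries of a comparison, and none of these sites lay at a histone gene. Among the sites tested elsewhere, 0.0386%, 0%, 0.251% and 0% passed in the same order of comparisons, and 434, 177, 965 and 120 sites had an unadjusted p below 0.05, so that this test gives no information on the histone genes.

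**Figure D2:**
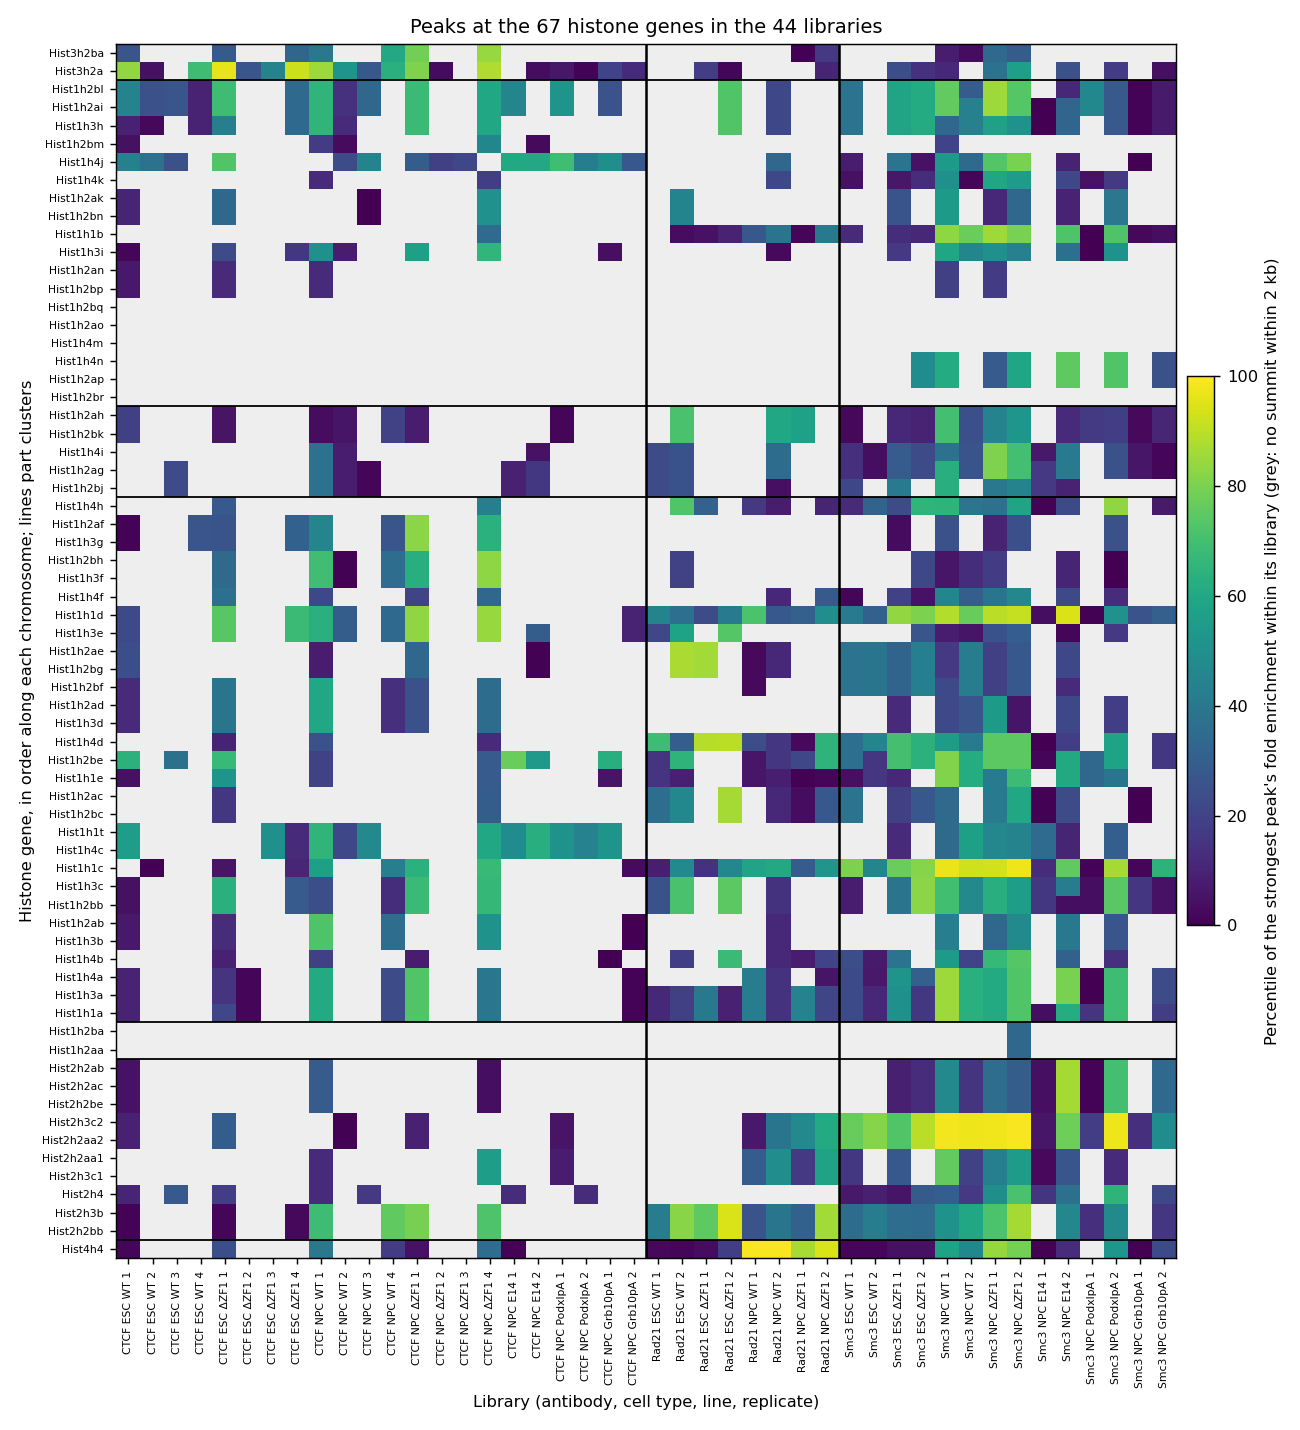
Strongest peak within 2 kb of each of the 67 histone genes (rows, in genomic order, black lines between the 7 clusters) in each of the 44 libraries (columns), coloured by the percentile of its fold enrichment within its list; grey marks genes with no summit. Smc3 fills much of the cluster of 29 genes on chromosome 13 and of the Hist2 genes, the CTCF columns of replicate 1 are fuller than those of replicates 2 and 3, and the row of Hist4h4 brightens in the Rad21 columns of NPCs.

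The linker histone genes stood out for Rad21, and they were also the type most often bound by Smc3. The median share of a type bound by Smc3 in a library was 91.7% for H1, 80.8% for H4, 66.7% for H3 and 52.8% for H2A and H2B. An H1 gene was the nearest histone gene of 43 of the 145 Rad21 peaks (29.7%), although these are 6 of 67 genes, whereas the 18 H2A genes had 5 (3.45%), the 18 H2B genes 37, the 12 H3 genes 24 and the 13 H4 genes 36. These peaks are pooled over libraries, and 1 gene can hold several, as Hist1h1c with 12 in 8 libraries. In each Rad21 library 4 or 5 of the 6 H1 genes were bound, and the median was 5. The exception was Hist1h1t, the testis linker histone, which had Rad21 in 0 of 8 libraries, against 8 of 8 for Hist1h1a, Hist1h1c and Hist1h1d, 7 for Hist1h1b and 6 for Hist1h1e. The other testis genes of the group, Hist1h2ba and Hist1h2aa, a divergent pair, had neither CTCF nor Rad21 in any library and Smc3 in 1 of 14.

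H1 genes differ from the core histone genes in how much of their sequence recurs in the genome, which bears on how many reads can be placed. Of the 50-base stretches in and around an H1 gene, 0 to 10.1% recurred elsewhere, with medians of 29.6% for H2A, 28.1% for H2B, 25.2% for H3 and 15.3% for H4 genes. Across the 67 genes this share and the number of libraries with a peak had a Spearman rho of −0.233 for Rad21, −0.288 for Smc3 and −0.276 for CTCF, as a description over genes that share libraries. The 4 genes with no peak in any library, Hist1h2bq, Hist1h2ao, Hist1h4m and Hist1h2br, had 89.1% to 100% of their 50-base and 62.2% to 100% of their 150-base stretches repeated, so a lack of peaks there cannot be told apart from a lack of placed reads. The share of this in the differences between histone types was not tested.

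**Figure D3:**
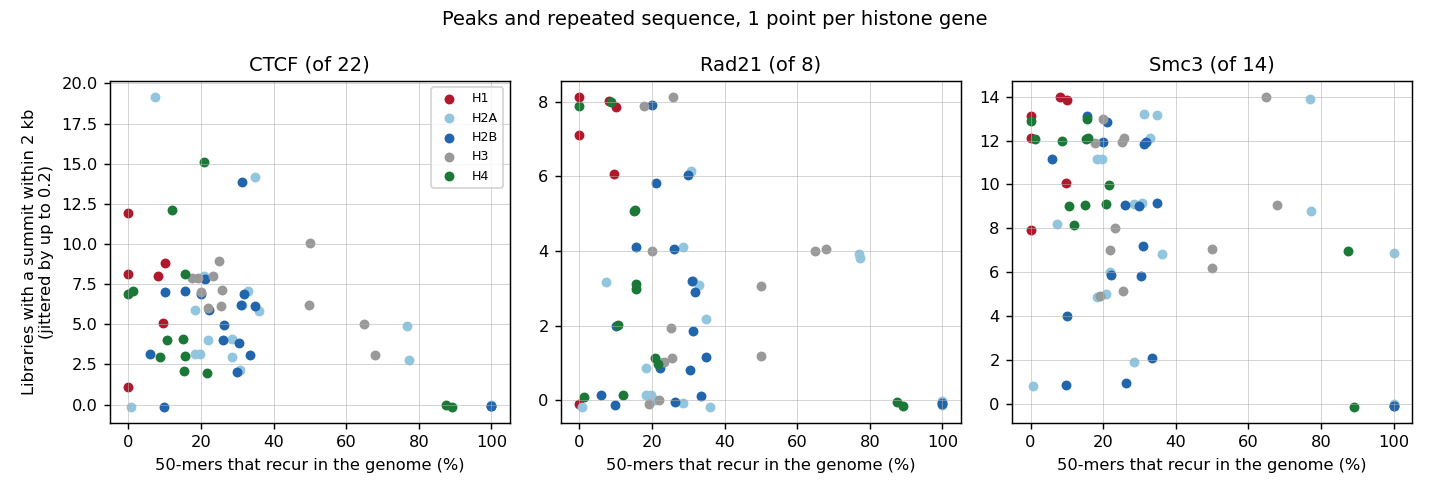
Number of libraries with a summit within 2 kb (y axis, jittered by up to 0.2) against the percentage of 50-base stretches of the gene and its flanks that recur in the genome (x axis), 1 point per histone gene, coloured by type, with a panel for each antibody. The H1 genes lie at 0 to 10.1% on the x axis, and the genes with 0 libraries in all panels lie at 89.1% or above.

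Within the 12 divergent H2A-H2B pairs, Rad21 summits lay on the H2B side in 20 of 22 peaks (90.9%) and Smc3 summits in 57 of 89 (64%). CTCF summits lay there in 14 of 46 (30.4%). In the Rad21 libraries the H2B side held 1 to 6 summits and the H2A side 0 or 1. For CTCF the lean to H2A came from replicates 1 and 4 of the rescue lines. Where these had such peaks, the H2A side held 2 to 7 and the H2B side 0 or 1. In the other CTCF libraries with such peaks, the H2A side held 0 to 2 and the H2B side 1 or 2. The median repeated share of H2A and H2B genes was similar, as given above, and these peaks come from shared libraries, so the counts are a description.

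Rad21 lay at the start of the histone genes in ESCs and further along them in NPCs. Measured from the start codon of the nearest histone gene, the median Rad21 summit lay at 55 and 34 bp in ESC-WT and at 67 and 55.5 bp in ESC-ΔZF1. In NPC-WT it lay at 413.5 and 397.5 bp, and in NPC-ΔZF1 at 303 and 387 bp. No ESC library reached the NPC range. Within a cell type the genotypes did not overlap, with ΔZF1 above WT in ESCs (by the nearest values, 55.5 against 55 bp) and below WT in NPCs (387 against 397.5 bp). With 2 libraries each, this order of genotypes was not tested. Summits beyond the stop codon made up 7.69% to 12.5% of the histone peaks in the 4 ESC libraries and 31.6% to 52.6% in the 4 NPC libraries. This shift was noticed in the values and has no test. Smc3 showed no such separation of cell types. Its median summit lay at 387.5 to 452 bp in the 4 ESC libraries, at 368 to 550.5 bp in the 4 NPC rescue libraries and at 438 to 721 bp in the E14 and pA lines (6 libraries), near or past the median coding length of 387 bp. Beyond the stop codon lay 40% to 69.6% of the rescue Smc3 summits, a range that overlapped that of Rad21 in NPCs and lay above that of Rad21 in ESCs. CTCF summits in replicates 1 and 4 lay at a median of 98 to 210 bp, and 63.0% to 100% of them fell within coding sequence.

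**Figure D4:**
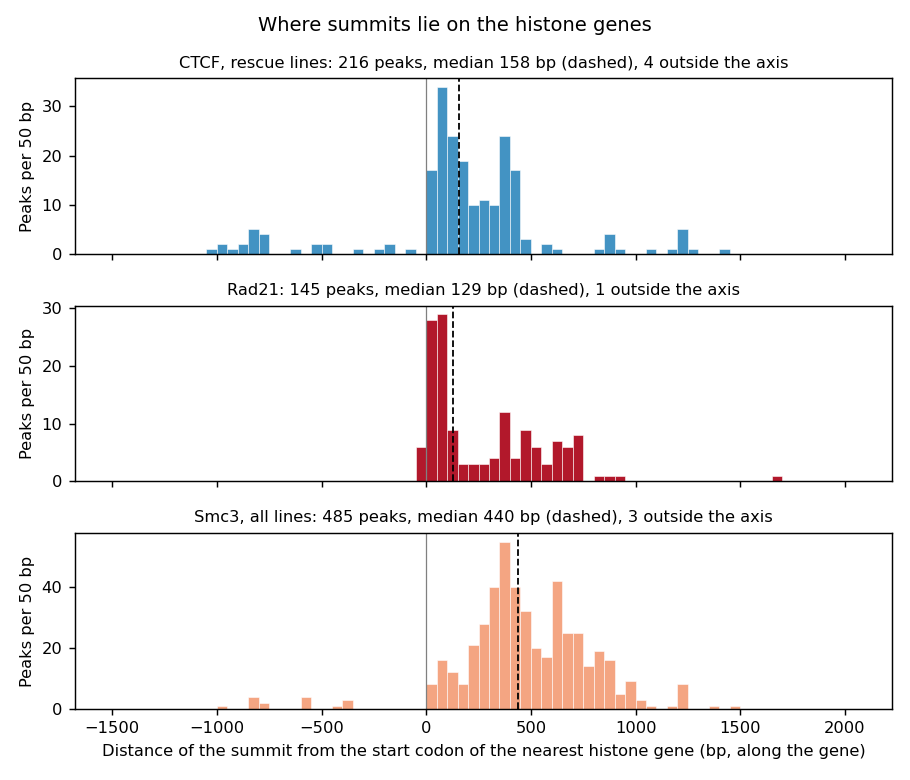
Number of peaks (y axis) by the distance of the summit from the start codon of the nearest histone gene (x axis, bp, bins of 50 bp) for CTCF in the rescue lines, Rad21 and Smc3, pooled over libraries, with the median dashed. Most Rad21 summits lie just past the start codon with a smaller group beyond 350 bp, and the Smc3 summits are centred near 440 bp.

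Few of the histone peaks contained the CTCF motif. Its core lay within 50 bp of the summit in 0 of the Rad21 histone peaks in 7 of the 8 libraries and in 4% in the remaining library (ESC-WT replicate 2), against 55.6% to 65.8% of all Rad21 peaks. For Smc3 the share was 0 to 10.5% against 46.7% to 68.8% (14 libraries). For CTCF in the rescue lines it was 0 to 14.8% in replicates 1 and 4 against 30.5% to 54.4%. In replicates 2 and 3, which held 1 to 12 histone peaks each, the median share was 50% (0 to 100%), against 49.6% to 64.2% of all peaks. In the E14 and pA lines, with 4 to 10 peaks, the share was 16.7% to 85.7% against 59.7% to 67.1% of all peaks. In these small sets the histone share of CTCF thus lay on both sides of that of all peaks.

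Cohesin peaks at histone genes overlapped CTCF peaks of the same group less than all cohesin peaks did in 14 of 16 rescue libraries. The exceptions were the Rad21 libraries of NPC-ΔZF1, with 73.7% of histone peaks against 69.9% of all peaks in replicate 1 and 78.9% against 71.1% in replicate 2. With a CTCF peak in any of the 4 libraries of the group, the overlap was 20% to 78.9% of the Rad21 histone peaks (median 48.2%, 8 libraries), against 69.9% to 92.8% of all Rad21 peaks, and 13.3% to 58.9% of the Smc3 histone peaks (median 47.2%, 8 libraries) against 59.4% to 96.1%. With CTCF replicates 2 and 3 alone it was 0 to 9.09% for Rad21, against 52.4% to 90.4%, and 0 to 23.2% for Smc3, against 29.2% to 90.5%. Of the 77 histone sites, 21 held cohesin without CTCF in any library, 7 CTCF without cohesin, and 32 all 3 proteins, while 15 were seen in 1 library.

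CTCF was called in at least 11 of the 22 libraries at 3 of the 77 sites. Of several peaks near a gene, the value given is that of the peak with the highest −log10 q. Hist3h2a, an H2A gene, was bound in 19, with a fold enrichment over background of 20.2, 5.28 and 8.17 in ESC-WT replicates 1, 2 and 4 and 26.3, 8.19, 8.22 and 13.7 in the ESC-ΔZF1 replicates. In NPC-WT it was 11.8, 9.23, 7.41 and 7.14, and in NPC-ΔZF1 9.63, 5.12 and 12 in replicates 1, 2 and 4. In replicates 1 and 4 these peaks stood at the 63.5th to 96.5th percentile of their lists, and in replicates 2 and 3 at the 3.11th to 51.8th. In the E14 and pA lines Hist3h2a was called in 5 of 6 libraries, at a fold of 4.74 to 7.93. None of the 19 summits had the CTCF core within 50 bp.

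The site 800 bp upstream of the start codon of Hist1h4j, an H4 gene, was the clearest motif-bearing one, with the core beside all 15 CTCF summits, which lay within 62 bp of each other. Its fold was 9.67, 8.84 and 7.95 in ESC-WT replicates 1, 2 and 3, and 11.4 in ESC-ΔZF1 replicate 1. It was 6.66 and 8.76 in NPC-WT replicates 2 and 3, and 5.40, 7.13 and 6.97 in NPC-ΔZF1 replicates 1, 2 and 3. In all 6 E14 and pA libraries it was called, at 8.30 to 13.3. Unlike most histone genes, Hist1h4j was called in replicates 2 and 3 of NPC-ΔZF1, where CTCF named 2 genes and 1 gene in all, and in replicate 4 of no group. Rad21 was found within 2 kb of Hist1h4j in 1 of 8 libraries, at another site, and Smc3 in 9 of 14, of which 4 had a peak at the CTCF site.

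The remaining site covers Hist1h4c and reaches past its end towards the testis gene Hist1h1t. It was called in 12 CTCF libraries, with the core beside 9 of the 12 summits and a fold of 3.72 to 12.3. These summits lay 44 to 893 bp from the start codon of Hist1h4c (median 866 bp), the nearest of them within the coding sequence. The site carried Rad21 in 0 of 8 libraries and Smc3 in 8 of 14. The core lay beside 12 of its 22 CTCF and Smc3 peaks, so these counts mix positions. Hist1h2bl and its partner Hist1h2ai, whose shared site beyond the end of Hist1h2bl had the core beside 8 of 9 CTCF summits, were both bound in 14 libraries. Hist1h3e was bound in 10 libraries, Hist1h1d and Hist1h3h in 9, and Hist1h2be, Hist1h1c and Hist1h2af in 8. Some of these peaks lay nearer to another histone gene. Hist1h1d was the nearest histone gene of a CTCF peak in 3 libraries, Hist1h2af in 1 and Hist1h2be in 6. The annotated Hist1h2be gene spans 37455 bp, and the sites at its coding sequence had CTCF in 0 libraries.

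Rad21 was present in all 8 libraries at 8 genes, the H1 genes Hist1h1a, Hist1h1c and Hist1h1d, the H4 genes Hist1h4d and Hist4h4, the H3 genes Hist1h3a and Hist2h3b, and the H2B gene Hist2h2bb. Hist1h3a neighbours Hist1h1a, and Hist2h3b neighbours Hist2h2bb, and each pair shared its strongest Rad21 peak. At Hist1h1c the Rad21 fold was 4.15 and 6.40 in ESC-WT, 4.16 and 5.62 in ESC-ΔZF1, 7.49 and 7.43 in NPC-WT and 5.60 and 6.03 in NPC-ΔZF1. At Hist1h1a it was 4.41 and 4.70, 5.28 and 3.84, 6.58 and 4.52, and 6.38 and 4.49 in the same order. The groups overlapped at both genes except that the NPC-WT values of Hist1h1c lay above the others.

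At Hist1h4d, the Rad21 fold was 7.51 and 5.41 in ESC-WT, 8.54 and 8.71 in ESC-ΔZF1, 5.59 and 4.59 in NPC-WT and 3.57 and 6.76 in NPC-ΔZF1. At Hist2h2bb it was 5.99 and 9.33, 7.01 and 9.87, 5.69 and 6.06, and 5.73 and 8.63 in the same order. ESC and NPC libraries overlapped at both genes. CTCF was called at Hist1h4d in 3 of 22 libraries, with a highest fold of 5.66.

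Hist4h4, the lone Hist4 gene, showed the largest contrast between cell types. The Rad21 fold of its strongest peak was 3.33 and 2.87 in ESC-WT and 3.37 and 4.37 in ESC-ΔZF1, and 15.8 and 16.5 in NPC-WT and 9.63 and 10.3 in NPC-ΔZF1. Every NPC library lay above every ESC library, and both NPC-ΔZF1 values lay below both NPC-WT values. With 2 against 2 libraries an exact permutation test cannot give a p below 0.333, and the genotype difference was not tested. The NPC peaks were among the strongest of their lists (87.0th to 99.1st percentile, against 2.23rd to 18.7th in ESCs). They stood 683 to 747 bp from the start codon, beyond the end of the coding sequence, whereas the ESC libraries had summits both there (699 to 743 bp) and within the coding sequence (50 to 114 bp).

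Smc3 at Hist4h4 was also higher in the NPC than in the ESC rescue libraries, with a fold of 3.42 and 2.72 in ESC-WT, 3.97 and 3.44 in ESC-ΔZF1, 10.4 and 6.57 in NPC-WT and 14.6 and 10.6 in NPC-ΔZF1. Unlike for Rad21, both NPC-ΔZF1 values lay above both NPC-WT values. Its NPC summits lay at 304 to 339 bp, at the end of the coding sequence. In the E14 and Grb10pA NPCs the fold was 4.33 and 6.11, and 3.44 and 6.64, and in PodxlpA it was 8.93 in replicate 2 with no peak in replicate 1. CTCF was called near Hist4h4 in 7 of 22 libraries. No 50-base stretch of Hist4h4 recurs in the genome.

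**Figure D5:**
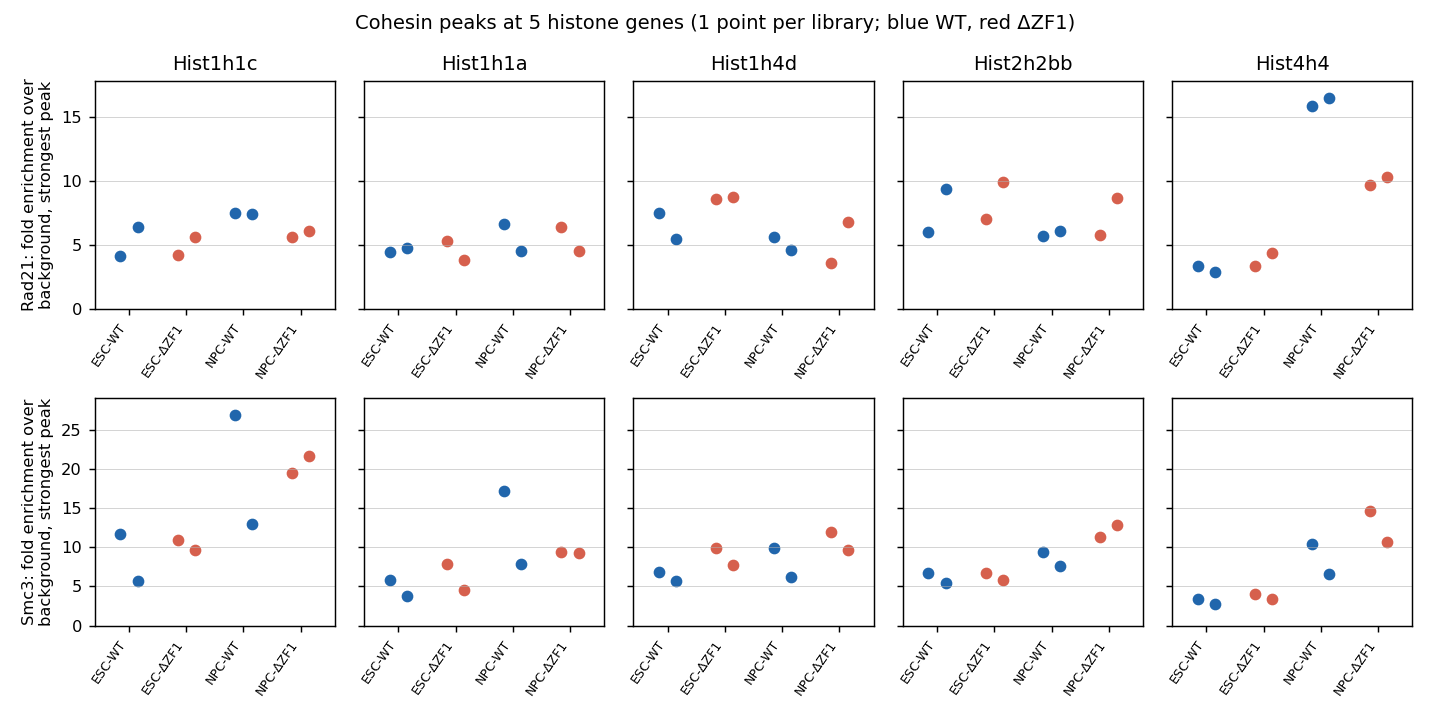
Fold enrichment over background (y axis, linear from 0) of the strongest Rad21 (upper row) and Smc3 (lower row) peak within 2 kb of 5 histone genes in the 4 rescue groups, 1 point per library, blue for WT and red for ΔZF1. Hist4h4 is the gene whose Rad21 points are apart between ESCs (2.87 to 4.37) and NPCs (9.63 to 16.5).

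By percentile at the start site, Rad21 in the 4 NPC libraries lay above the 4 ESC libraries without overlap at 5 of the 67 histone genes, against 0.405% of all genes. Besides Hist4h4 they were Hist2h3c2, Hist2h2aa2, Hist2h2aa1 and Hist2h3c1, where the ESC libraries had no peak. The reverse occurred at 0 histone genes (0.0911% of all genes), and ΔZF1 and WT were apart in either direction at 2 (0.132% of all genes). These 2, Hist1h2be and Hist1h1e, had identical values, and the annotated start of Hist1h2be lies far from its coding sequence. For Smc3 in the rescue lines, NPCs lay above ESCs at 24 of the 67 genes, against 3.87% of all genes, and below at 0 (0.0774%). The genotypes were apart at 3 genes, Hist3h2a, Hist1h3h and Hist1h4d, all higher in ΔZF1 (0.638% of all genes in either direction). Neighbours such as Hist2h3c2 and Hist2h2aa2 had identical values for both antibodies and share peaks, so these counts are of genes and exceed the number of separate peaks. The E14 and pA libraries were not part of these counts. The Rad21 lists held 4774 to 8144 peaks in NPCs and 1306 to 10415 in ESCs, and the Smc3 lists 13710 to 34104 and 8169 to 18023. With all lists of an antibody cut to equal length, Rad21 separated the cell types at 1 histone gene, Hist4h4 (0.0866% of all genes), and Smc3 at 4, Hist4h4, Hist1h1c, Hist2h3c2 and Hist2h2aa2 (0.724%), and the genotypes separated at 0.

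At Hist1h1c, the Smc3 fold was 11.6 and 5.64 in ESC-WT, 10.9 and 9.64 in ESC-ΔZF1, 26.9 and 13 in NPC-WT and 19.5 and 21.7 in NPC-ΔZF1. The lowest of these NPC rescue values exceeded the highest ESC value. At Hist2h2aa2 the Smc3 fold was 10.9 and 8.04, 10.3 and 11.5, 31.1 and 16.2, and 27 and 27.2 in the same order. In the other NPC lines the Smc3 fold of Hist1h1c was 6.35 and 12.2 in E14, 4.61 and 14.3 in PodxlpA and 4.91 and 9.97 in Grb10pA. These values lay below, within and above the ESC range, so the separation holds for the rescue lines alone. Hist2h2aa2 and Hist2h3c2 have near copies in Hist2h2aa1 and Hist2h3c1, with 64.8% to 77.2% of their 50-base stretches repeated, and the assignment of reads between the copies is uncertain.

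In the E14 and pA NPCs the 3 lines were alike in order by replicate. Smc3 bound 26 and 55 of the 67 genes in E14, 23 and 50 in PodxlpA and 18 and 30 in Grb10pA, with replicate 2 higher in all 3 lines. In both pA lines 1 value lay within the range of the E14 values and 1 below it. Differences between these lines were not tested.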

How the data were processed

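Paired-end ChIP-seq reads were aligned by the authors to mm10 with Bowtie2, filtered for mapping quality (30), duplicates (Picard) and blacklisted regions (bedtools), and peaks were called per library with MACS2 at q 0.01. For the aligner and peak caller, the versions are not given in the sources used here. The deposited lists give, for each peak, a score, the fold enrichment (a ratio of pileup over the local level), −log10 p-value, −log10 q-value and summit position. The authors' read-based DiffBind test was not repeated, and the 10 input samples of 54 were not analysed here.

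Genes, coding sequences and symbols came from GENCODE vM21, and sequences from RefSeq GRCm38, matched through synonyms. A gene was bound when a summit lay within 2 kb. Named genes were the 12 bound in most CTCF libraries, the 8 bound in most cohesin libraries, switched genes, genes of each type and cluster, and genes without peaks. Genes named for groups without overlap (Hist2h2aa2 among them), other H1 genes and testis genes were chosen after their values were seen. The members and lists were chosen with earlier results of these data known. Start-site counts misplace Hist1h1d and Hist1h2be, whose annotated starts lie 1828 and 35168 bp from the start codon. Overlapping peaks (1 bp) were merged into sites. Fold and p together gave whole fragment numbers for 99.7% to 100% of the peaks with −log10 p up to 60, and the lowest background of a list served as its depth, which the deposited lists do not state.

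Percentages of bound genes and histone peaks per 1000 were compared by exact permutation of libraries (two-sided, Benjamini-Hochberg over 10 tests), and ranks of fold enrichment over all sites called in all 8 libraries with limma 3.58.1 in R 4.3.3, which was tested on simulated data. Python 3.11.15, numpy 2.4.6, pandas 2.3.3, scipy 1.17.1 and matplotlib 3.10.9 were used. The labels do not say that replicates are separate cultures, and p-values then measure only the spread between these libraries. Peak names inside the replicate 4 lists carry the number 2. Samples were named by their labels, and it stays unsettled if replicate 4 was sequenced from its own library. Deviations of same-numbered CTCF libraries from their group means correlated by 0.137 to 0.473 in 3 of the 4 comparisons, where the numbers were taken to pair the libraries from the data, and by 0.0695 to 0.316 for NPCs against ESCs in WT. Other windows, thresholds, list lengths, replicate choices and a replicate block were tried.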

Additional observations from a re-analysis of the deposited data

Results flagged for a closer look

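ESC-WT CTCF replicate 1 stood apart from the other 3 libraries of its group at the histone genes. CTCF bound 64.2% of the genes there, against 8.96% to 10.4% in the others, and its list held 0.628 histone peaks per 1000, against 0.216 to 0.268. Dixon's criterion at the 95% level marks about 1 in 20 groups of 4 by chance. Without this library CTCF bound 8.96% to 10.4% of the genes in ESC-WT. Its list was the longest of the group, with 43003 peaks, and its background was 1.48 fragments, against 0.442 and 0.446 in replicates 2 and 3 and 1.96 in replicate 4. The part of list length and depth in this difference was not tested.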

How the results depend on the processing

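Over 22 results and 288 alternatives, 245 kept direction and side of the threshold or stayed within the spread, or within 1.5 times for counts. In the ΔZF1 minus WT comparison in NPCs, the difference in histone genes bound by CTCF became 3.73 points at equal peak numbers, and that in histone peaks per 1000 became 0.0608 at a −log10 q of at least 5, 0.304 at equal peak numbers and 0.00225 with start sites. Leaving out libraries gave −11.2 to 15.9 points (ESCs) and −22.4 to 2.86 points (NPCs) for ΔZF1 minus WT, 4.23 to 29.7 (WT) and −7.46 to 18.3 (ΔZF1) for NPCs minus ESCs, and, per 1000 peaks, −0.0504 to 0.167 (ESCs) and −0.285 to 0.171 (NPCs) for ΔZF1 minus WT and 0.279 to 0.567 (WT) and 0.0581 to 0.513 (ΔZF1) for NPCs minus ESCs, with exact p-values of 0.0571 to 1. Smc3 minus Rad21 was −3.92 points at equal peak numbers, with the call lost. Without replicate 1 or 2 it was 21.3 to 50.7 points, where 1 library per antibody and group is left and the test cannot reach the threshold. The equal lists hold fewer peaks by construction, and for the other changes the cause was not tested. Switched histone genes numbered 0 to 2 when libraries were left out (Hist1h2ag and Hist1h2bj without NPC-WT replicate 4 in the genotype comparison, Hist1h2bh and Hist1h3f without NPC-WT replicate 3 in the cell type comparison). The settings for non-overlapping genes and for leaving out replicate 4 were chosen after seeing the data. Beside each count of such histone genes, in which neighbours can share a peak, stands the share of all genes. Rad21 was higher in NPCs at 8 in WT alone (0.825%), 8 in ΔZF1 alone (1.69%), 1 at equal peak numbers (0.0866%) and 5 to 8 with a library left out (0.419% to 0.729%). Rad21 was apart by genotype at 9 in ESCs alone (1.52%), 11 in NPCs alone (1.33%), 0 at equal peak numbers (0.0638%) and 2 to 5 with a library left out (0.146% to 0.360%). Smc3 was higher in NPCs at 36 in WT alone (5.79%), 41 in ΔZF1 alone (18.9%), 4 at equal peak numbers (0.724%) and 24 to 37 with a library left out (3.91% to 9.76%). Smc3 was apart by genotype at 20 in ESCs alone (3.37%), 17 in NPCs alone (25.4% of the histone genes against 16.8% of all genes), 0 at equal peak numbers (0.269%) and 3 to 6 with a library left out (0.688% to 2.16%). A replicate block changed no call. With it the exact p was 0.875 for ΔZF1 minus WT in ESCs and 0.125 for NPCs minus ESCs in WT, where NPC-WT lay above ESC-WT in 4 of 4 same-numbered libraries. Per 1000 peaks the blocked p of NPCs minus ESCs was 0.125 in WT and in ΔZF1, with NPCs higher in 4 of 4, and 0.125 is the smallest p that 4 pairs can give. The lists limit what could be seen, since reads of low mapping quality were removed and sites absent from a list hold no value. How many reads this took from repeated histone sequence was not measured.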

Other observations

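Genes that serve the histone locus did not share the cohesin occupancy of the histone genes. Of 22 factors of histone gene transcription and of histone mRNA processing, 21 were found under their symbols, and Rad21 lay within 2 kb of the start site of a median of 4.76% of them (0 to 14.3% over 8 libraries), against 29.9% of the histone genes. Smc3 lay there at a median of 9.52% (9.52% to 47.6%) and CTCF at 19.0% (9.52% to 66.7%). Over the same libraries, the median share of all genes was 2.74% for Rad21, 9.84% for Smc3 and 16.03% for CTCF. The factors thus lay near all genes for Smc3 and CTCF, and their Rad21 median of 4.76% stands for a single gene of the 21. Npat, the organizer of the histone locus body, had no peak of any of the 3 proteins. Lsm11, a component of the snRNP that cleaves histone mRNA, was bound by CTCF in 22 of 22 libraries, and Pou2f1, which reads the octamer, in 20 of 22, with Smc3 at both in 14 of 14 and Rad21 in 2 and 5 of 8. Of all genes, 2.71% had CTCF in all 22 libraries by start site and 8.3% by any part of the gene. For Smc3 in all 14 libraries these shares were 1.8% and 8.34%.

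The 11 genes listed as replication-independent, which encode histone variants, had Rad21 at a median of 0 (0 to 18.2%) and Smc3 at 27.3% (0 to 81.8%), and CTCF at 36.4% (9.09% to 81.8%). The Smc3 and CTCF medians lay above the medians of all genes given above, and the Rad21 median lay below. H2afy2, a macroH2A gene, was bound by CTCF in 22 of 22 libraries and H1fx, a linker histone variant, in 21. Hfe, a gene of iron uptake that lies among the Hist1 genes, had no peak of CTCF, Rad21 or Smc3 in any library. These lists were chosen with earlier results known, and no test was made of them.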
